A study of Mus musculus with 2 samples.

Results

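The miR-148 family of the mouse, to which miR-152 belongs, consists of 3 microRNA genes, Mir148a, Mir148b and Mir152, out of 2202 annotated microRNA genes whose reads were counted in cerebral cortex. They were taken by their GENCODE M21 symbols, and all 3 had counts in every library. The tissue was the left cerebral cortex of B6CASTF1/J males aged 36 days, with no treatment given in the labels; these mice are F1 offspring of C57BL/6J and CAST strains. The 2 libraries form 1 group, with replicate 1 from the animal labelled number 3 and replicate 2 from number 4, so no comparison between conditions can be made. The labels number the animals separately, but give 1 donor identifier for both libraries. If both came from 1 animal, the differences below are technical spread only.

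MicroRNAs are short RNAs cut from a hairpin precursor. One arm of the hairpin is loaded into an Argonaute protein, and the seed near its 5′ end pairs with target messages and lowers their output. Members of the miR-148 family are known for repressing DNA methyltransferase genes, among them Dnmt1. miR-148a is also known from liver, where it represses the LDL receptor and the cholesterol exporter Abca1, and from B cells, where it affects tolerance. Loci that give mature RNAs with 1 seed can serve the same targets, so the family's summed level and the share of each locus are both of interest.

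The mature sequences of the 3′ arm are shown first, because the shared seed defines the family and the other bases are what lets a read be placed at 1 locus. They are RefSeq sequences on GRCm38.p6, found for 3 of 3 genes and written 5′ to 3′, with the seed (bases 2 to 8) in capitals.
miR-148a-3p: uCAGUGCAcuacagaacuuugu
miR-148b-3p: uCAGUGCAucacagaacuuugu
miR-152-3p: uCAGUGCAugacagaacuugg
These 3 were the only mature sequences among 1679 names in the RefSeq table with that seed at bases 2 to 8. Counted from 1 at the 5′ end, with the base of the first-named RNA first, miR-148a-3p and miR-148b-3p differ by C9U and U10C. miR-148b-3p and miR-152-3p differ by C10G and U20G over the 21 bases compared, and miR-148a-3p and miR-152-3p differ by C9U, U10G and U20G. All of these differences lie outside the seed.

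The 5′ arms are less alike. They are shown because reads from both arms are counted together at a gene, again with bases 2 to 8 in capitals.
miR-148a-5p: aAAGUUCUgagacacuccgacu
miR-148b-5p: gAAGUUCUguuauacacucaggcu
miR-152-5p: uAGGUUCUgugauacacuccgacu
Bases 2 to 8 are the same in miR-148a-5p and miR-148b-5p, while miR-152-5p differs from each of them there by A3G. Over the 22 bases compared, miR-148a-5p and miR-148b-5p share 13 bases, against 20 of 22 for their 3′ arms.

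Each mature sequence was found whole in 1 hairpin of the RefSeq table and in no other GENCODE M21 transcript on either strand. The longest stretch that a 3′ arm shares with another microRNA hairpin is 12 bases, between miR-148a-3p and the hairpin of Mir148b and the reverse, and 11 bases between miR-152-3p and the hairpin of Mir878. Full-length reads of these RNAs can thus be told apart among annotated microRNA genes. Placement elsewhere in the genome was not analysed here.

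The loci lie on separate chromosomes (mm10). Mir148a (ENSMUSG00000065505.1) is on the minus strand at chr6:51269812-51269910 and overlaps no other annotated gene. The nearest protein-coding gene is Nfe2l3, 163 kb away. Mir148b (ENSMUSG00000065560.1) is on the plus strand at chr15:103285125-103285221, in an intron of Copz1 and on the same strand. Mir152 (ENSMUSG00000065515.1) is on the plus strand at chr11:96850393-96850465, in an intron of Copz2 and on the same strand. Copz1 and Copz2 encode paralogous zeta subunits of the COPI coat, which carries vesicles from the Golgi to the endoplasmic reticulum, so 2 of the 3 loci sit in related host genes. None has a close microRNA neighbour. The nearest annotated microRNA genes are 352 kb from Mir148a, 65.2 kb from Mir148b and 213 kb from Mir152, and they had 0 and 0, 0 and 0, and 5 and 1 counts in replicates 1 and 2.

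The hairpins are given below because they are the counted intervals and differ in length. Both mature arms are in capitals, the 5′ arm first.
Mir148a: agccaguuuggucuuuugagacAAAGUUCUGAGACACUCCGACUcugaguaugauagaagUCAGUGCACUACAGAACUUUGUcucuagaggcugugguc
Mir148b: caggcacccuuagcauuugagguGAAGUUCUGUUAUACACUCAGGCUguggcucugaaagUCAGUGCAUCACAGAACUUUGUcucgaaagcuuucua
Mir152: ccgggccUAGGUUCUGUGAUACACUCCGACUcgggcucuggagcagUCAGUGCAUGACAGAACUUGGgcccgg
The annotated hairpin of Mir152 is 73 bases long with 61.6% G and C, against 99 bases and 45.5% for Mir148a and 97 bases and 45.4% for Mir148b.

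Replicate 1 held 11886775 reads, of which 4273791 were counted at microRNA genes on the gene's own strand, and replicate 2 held 11534730 reads with 4010274 so counted. Levels are in CPM, own-strand counts per 1000000 own-strand counts at microRNA genes. Intervals in brackets are exact 95% binomial (Clopper-Pearson) intervals, which cover counting error only, since reads without molecular identifiers are not independent molecules. The cortical neuron markers Mir132, Mir137, Mir138-1, Mir128-1 and Mir383 were all detected, meaning 10 CPM or more in each library, and summed to 84567 CPM (replicate 1) and 55195 CPM (replicate 2).

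The family was scarce in this tissue. Together its members gave 585 counts in replicate 1 and 341 in replicate 2, that is 136.9 and 85.0 CPM, with a mean of 111 ± 36.7 CPM (SD, n = 2). This was 0.0111% ± 0.00367 of the own-strand counts (SD, n = 2). All 3 members were among the 300 genes that reached 10 CPM in each library, but 73.3% of those genes stood above Mir148b, 87% above Mir148a and 96% above Mir152. The median detected gene had 325 CPM.

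**Figure D1:**
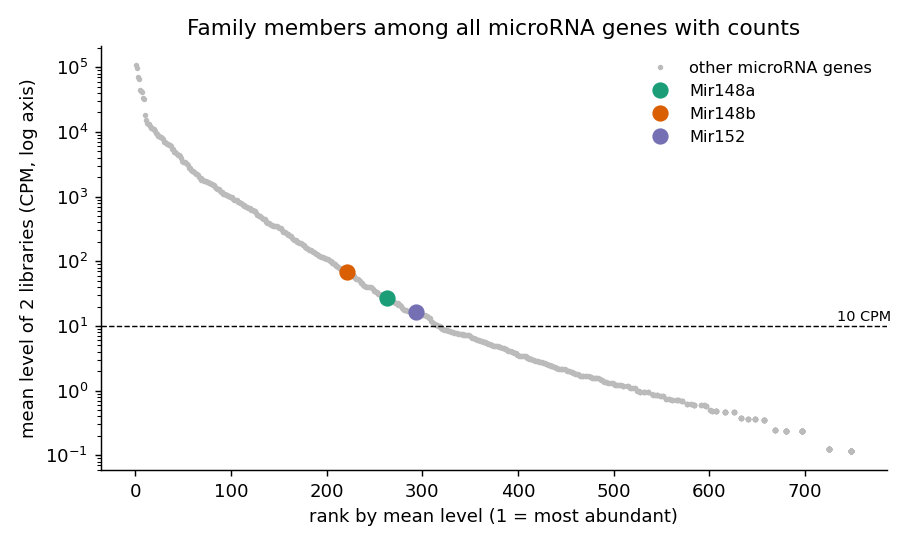
Mean level of the 2 libraries (vertical axis, CPM, log scale) against rank by mean level (horizontal axis) for microRNA genes with counts, with the 3 family members in colour and a dashed line at 10 CPM. Mir148b stood at rank 221, Mir148a at 263 and Mir152 at 293, above the line.

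Mir148b, the Copz1 locus, had the highest level in both libraries. It had 376 counts in replicate 1, or 88.0 CPM (79.3 to 97.3), and 187 in replicate 2, or 46.6 CPM (40.2 to 53.8). The mean was 67.3 ± 29.2 CPM (SD, n = 2). The intervals of the libraries do not overlap, and replicate 1 was the higher.

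Mir148a, the locus outside any host gene, came second. It had 143 counts in replicate 1, or 33.5 CPM (28.2 to 39.4), and 86 in replicate 2, or 21.4 CPM (17.2 to 26.5). The mean was 27.5 ± 8.50 CPM (SD, n = 2). Here too the intervals do not overlap, with replicate 1 higher.

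Mir152, the Copz2 locus, was the lowest. It had 66 counts in replicate 1, or 15.4 CPM (11.9 to 19.7), and 68 in replicate 2, or 17.0 CPM (13.2 to 21.5). The mean was 16.2 ± 1.07 CPM (SD, n = 2). The intervals overlap over most of their width. At none of the 3 genes were reads counted on the opposite strand, and the unstranded counts were the same as those on the gene's own strand.

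**Figure D2:**
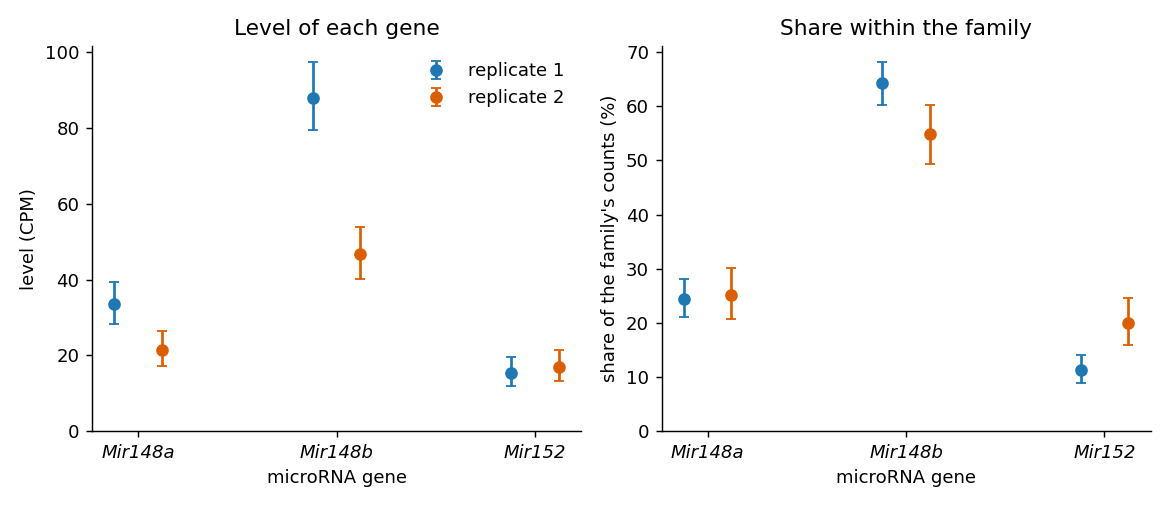
Level in CPM (left, linear from 0) and percent of the family's counts (right, linear from 0) of each member in each library, with points for libraries and bars for exact 95% binomial intervals. Mir148b lies above the other members in both libraries, and Mir152 takes 11.3% of the family's counts in replicate 1 and 19.9% in replicate 2.

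Within a library, the order of the first 2 members was separated by more than counting error. Mir148b exceeded Mir148a by 2.63-fold (2.16 to 3.21) in replicate 1 and by 2.17-fold (1.68 to 2.84) in replicate 2. Mir148a exceeded Mir152 by 2.17-fold (1.61 to 2.95) in replicate 1, but in replicate 2 the ratio was 1.26 (0.909 to 1.77), so these neighbours in the order could not be told apart there. The mature 3′ arms are 21 or 22 bases long, so a whole mature RNA gives a read of nearly the same length at each locus and counts were compared unscaled. Per 100 hairpin bases, Mir148b had 388 and 193 counts in replicates 1 and 2, Mir148a 144 and 86.9, and Mir152 90.4 and 93.2. On that scale Mir152 stood just above Mir148a in replicate 2.

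The make-up of the family differed between the libraries. Mir148b gave 64.3% of the family's counts in replicate 1 (60.2 to 68.2) and 54.8% in replicate 2 (49.4 to 60.2). Mir152 gave 11.3% (8.83 to 14.1) and 19.9% (15.8 to 24.6), with intervals that do not overlap. Mir148a gave nearly the same share in each, 24.4% (21.0 to 28.1) and 25.2% (20.7 to 30.2). Mean shares were 59.6% ± 6.67 for Mir148b, 24.8% ± 0.548 for Mir148a and 15.6% ± 6.12 for Mir152 (SD, n = 2).

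Whether the members differed between the libraries was tested against counting error with an exact two-sided binomial test on TMM-scaled library sizes, with Benjamini-Hochberg adjustment over all 516 genes with 10 or more counts together. Mir148b was lower in replicate 2, with a log2 ratio of -0.88 (-1.14 to -0.62, adjusted p = 1.43e-11, exact binomial test). Mir148a was also lower, at -0.60 (-1.005 to -0.206, adjusted p = 0.00474, exact binomial test). Mir152 did not pass, at 0.18 (-0.33 to 0.69, adjusted p = 0.59, exact binomial test); its interval allows a level in replicate 2 of 0.793 to 1.61 times that in replicate 1. So 2 of 3 members were called lower and 0 higher. Over all genes tested, 57.9% were called in either direction, 30.4% as lower and 27.5% as higher. The test compares 2 libraries and not conditions, and a call was the common outcome.

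The members' differences were also of ordinary size for these libraries. The median absolute log2 ratio of the genes tested that had counts in both libraries was 0.55. That of the 117 genes with at least 100 but under 1000 counts together was 0.49. A ratio at least as far from 0 as that of Mir148b was found in 29.5% of the 516 genes tested, as that of Mir148a in 46.5% and as that of Mir152 in 82.0%. These percentages count genes with 0 counts in 1 library, which have no ratio, as at least as far. The members' median log2 ratio was -0.60, beside -0.04 over all genes tested that had counts in both libraries.

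**Figure D3:**
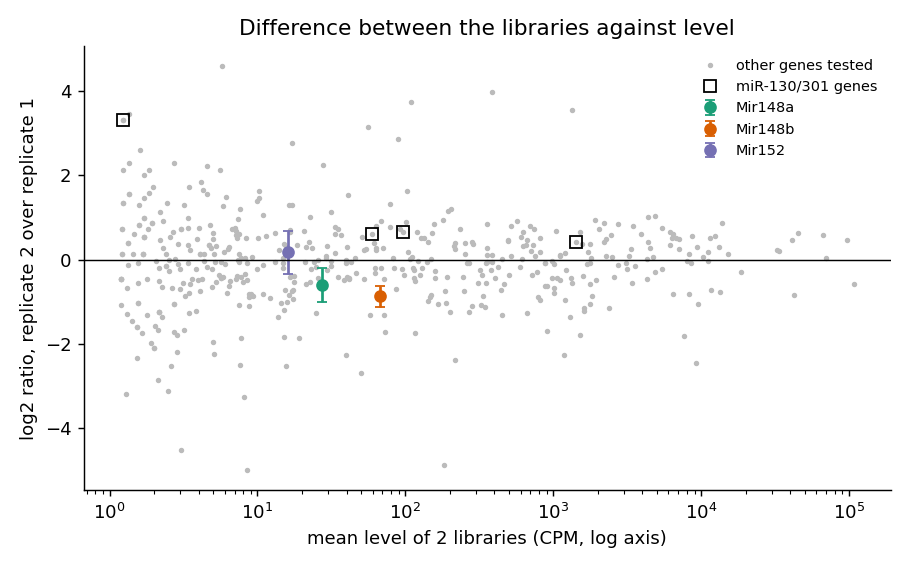
The log2 ratio of replicate 2 over replicate 1 (vertical axis) against mean level (horizontal axis, CPM, log scale) for genes tested with counts in both libraries. Family members are coloured with exact 95% intervals, and open squares are miR-130 and miR-301 genes; Mir148b at -0.88 and Mir148a at -0.60 lie inside the cloud of genes of their level.

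Differences among the members do not depend on how the libraries are scaled. The ratio of replicate 2 over replicate 1 for Mir152 was 2.07 times that for Mir148b (exact conditional 95% interval 1.39 to 3.09). It was 1.71 times that for Mir148a (1.09 to 2.70). The ratio for Mir148b was 0.827 times that for Mir148a (0.594 to 1.15), an interval that includes 1. The ratios of the 2 loci in Copz introns therefore differed by more than counting error, and Mir148b was not separated from the intergenic Mir148a. The levels of those 2 Copz loci came closer together. Mir148b exceeded Mir152 by 5.70-fold (4.38 to 7.52) in replicate 1 and by 2.75-fold (2.07 to 3.685) in replicate 2. Differences beyond counting error were common here, with 57.9% of all genes tested called between the libraries. How often the ratios of other pairs of genes differed as much was not tested. If each library came from its own animal, spread between animals cannot be told apart from spread between preparations.

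Other cell types' markers also differed between the libraries, where 57.9% of all genes tested were called, 27.5% as higher and 30.4% as lower. The calls below are to be read beside those shares. Whether marker genes other than Mir128-1 share a mature RNA with another locus was not analysed here. The red-cell markers Mir451a, Mir144 and Mir486 summed to 83.5 CPM (replicate 1) and 794 CPM (replicate 2), with 2 of 3 higher in replicate 2. The 5 epithelial genes of the miR-200 family summed to 137.8 and 386 CPM, with 4 higher and 1 lower (Mir200b, not called with DESeq2 size factors). Neuronal markers were lower in sum in replicate 2, as given above, with 2 of 5 higher and 3 lower. The lower were Mir132 (54937 and 30022 CPM), which gave most of that sum, Mir128-1 (12977.5 and 6095.6) and Mir137 (5877 and 4920). The higher were Mir138-1 (5292 and 7354 CPM) and Mir383 (5484 and 6804), so the sum does not stand for all 5. Oligodendrocyte markers summed to 5092 and 3534 CPM with 2 of 2 lower, and leukocyte and microglial markers to 2229 and 2065 CPM with 2 of 5 higher and 2 lower (Mir155, among the higher, was not called with total counts or all reads). The part of any of these cell types in the lower Mir148a and Mir148b of replicate 2 was not tested, and in bulk tissue fewer cells of a type and less RNA per cell cannot be told apart. Of the 2 liver markers, Mir122, a microRNA nearly restricted to hepatocytes, stood at 47.5 and 79.8 CPM and was higher in replicate 2. The other, Mir192, stood at 11.5 and 5.99 CPM, on 49 and 24 counts, and was lower. Endothelial Mir126a had 11394 and 10799 CPM with a log2 ratio of -0.04 (adjusted p = 0.000241, or 1 with DESeq2 size factors, exact binomial test), and the mural markers summed to 5178 and 7692 CPM with 1 of 2 higher and 1 lower.

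The miR-130 and miR-301 genes are the closest relatives by seed. The mature 3′ arms of Mir130a, Mir130b and Mir301 carry the same run of letters, CAGUGCA, but 1 base nearer the 5′ end, which shifts the seed register. For Mir301b the RefSeq sequences held only the 5′ arm, so the run was not looked for in its 3′ arm. The 3 detected relatives are shown with that run in capitals.
miR-130a-3p: CAGUGCAauguuaaaagggcau
miR-130b-3p: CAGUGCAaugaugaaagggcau
miR-301a-3p: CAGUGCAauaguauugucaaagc
These genes were more abundant than the family, with sums of 1357 CPM (replicate 1) and 1781 CPM (replicate 2). Mir130a gave most of it, with 1233 and 1591 CPM. Mir130b had 75.6 and 116 CPM, Mir301 48.2 and 71.6 CPM, and Mir301b 0.234 and 2.24 CPM, on 1 and 9 counts. All 4 were higher in replicate 2, with log2 ratios of 0.41 for Mir130a, 0.66 for Mir130b and 0.61 for Mir301, while 27.5% of all genes tested were called higher. The ratio of replicate 2 over replicate 1 for their summed counts was 2.11 times that of the miR-148 family (exact conditional 95% interval 1.84 to 2.43). Another 4 genes whose mature RNA starts with the same run, Mir130c, Mir721, Mir6341 and Mir6389, had 0 counts in both libraries, for which the upper limits, at 3 counts, are 0.702 CPM (replicate 1) and 0.748 CPM (replicate 2).

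Families in introns of other paralogous hosts stood higher as well. The miR-26 genes, known from introns of Ctdsp phosphatase genes, summed to 4489 ± 276 CPM, and the miR-103 and miR-107 genes, known from introns of pantothenate kinase genes, to 4405 ± 2020 CPM (SD, n = 2). In each, 1 locus with a mature sequence of its own held most of the counts, Mir26b at 4324 and 4277 CPM and Mir107 at 2946 and 5783 CPM. The main mature RNAs of Mir26a-1 and Mir26a-2, and of Mir103-1 and Mir103-2, are each made by 2 hairpins, so reads that fit both loci are missing from their counts. Mir103-2, at 25.0 and 41.6 CPM, therefore cannot be ranked against Mir148a from these counts. No such identical copy exists for the miR-148 genes in the table of hairpins.

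Other microRNAs known for repressing DNA methyltransferase genes were the miR-29 genes, which summed to 9177 ± 539 CPM (SD, n = 2), far above the miR-148 family. miR-29b-3p is made by both Mir29b-1 and Mir29b-2, so reads that fit both loci are missing from this sum. Mir29a led with 8255 CPM (replicate 1) and 7810 CPM (replicate 2), followed by Mir29c with 1136 and 819 CPM. Of the 4 genes, 2 were called lower in replicate 2, Mir29a with a log2 ratio of -0.04 and Mir29c with -0.43, and 2 did not pass. With DESeq2 size factors Mir29a was not called and Mir29b-2 was called higher (log2 ratio 0.22), and with all reads as the scale Mir29b-1 was called lower (-0.30). Among microRNAs known for repressing cholesterol-handling genes, Mir128-1, Mir128-2 and Mir27b were lower in replicate 2 (log2 ratios of -1.05, -1.15 and -1.14), Mir122 was higher (0.79), and Mir33 did not pass (0.34, -0.14 to 0.82). Mir128-1, also one of the neuronal markers, and Mir128-2 both make miR-128-3p, so their counts lack reads that fit both loci. Mir33, which lies in an intron of the sterol regulator Srebf2, stood at 16.6 and 20.4 CPM, near Mir152.

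**Figure D4:**
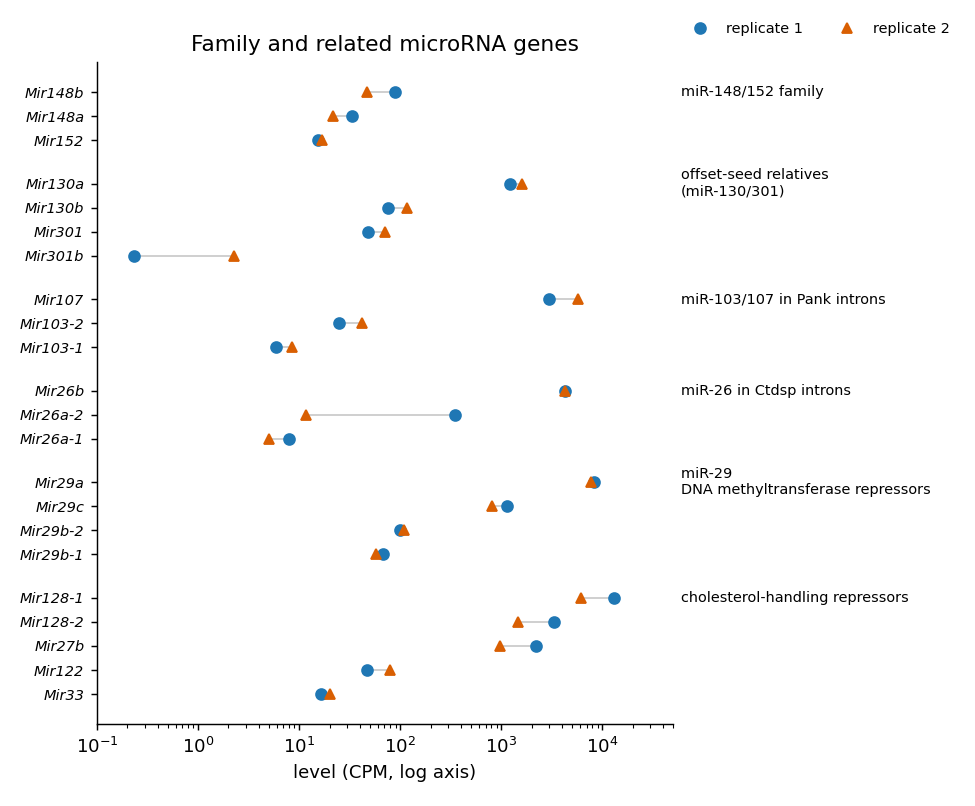
Level (horizontal axis, CPM, log scale) of the family members and of genes in 5 related lists, with a circle for replicate 1 and a triangle for replicate 2. Mir130a, Mir107, Mir26b and Mir29a, the highest genes of their lists, all lie above 1000 CPM, while the miR-148 genes lie between 15.4 and 88.0 CPM. Other listed genes lie within that range, among them Mir301, Mir103-2 and Mir33, or below it, as do Mir103-1, Mir26a-1 and Mir301b.

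The genes most like each member over the 2 libraries were found by the root mean square difference in log2(CPM + 1). Whether the mature RNAs of these genes are also made by other loci, which would lower their counts, was not analysed here. For Mir148a they were Mir374b (difference 0.04), at 32.5 and 21.9 CPM, and Mir503 (0.06), at 35.6 and 21.9 CPM. For Mir148b they were Mir16-2 (0.21), at 103 and 40.4 CPM, and Mir7047 (0.25), at 84.5 and 59.8 CPM. For Mir152 they were Mir3061 (0.08), at 14.3 and 17.0 CPM, and Mir764 (0.12), at 15.0 and 15.0 CPM. The neighbours of Mir148a and Mir148b were all called lower in replicate 2 and those of Mir152 were not called, which follows from choosing them by these same values.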

How the data were processed

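Own-strand reads per microRNA gene were analysed in 2 libraries. The deposited values are whole-number counts, not normalized, made by the authors on mm10 with GENCODE M21, per the text files deposited beside the tables; the labels give a size range below 30 bases. Neither the aligner nor the counter is named in those sources. The columns have no header and were read as unstranded, own-strand and opposite-strand counts from their layout. Unmapped, multi-mapped (42.8% and 39.9% of all reads in replicates 1 and 2) and unassigned reads stayed out of totals and tests. How CAST alleles affect mapping to mm10 was not tested.

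All 2202 identifiers matched GENCODE M21. CPM used own-strand totals. Genes with 10 or more counts together were tested with an exact binomial test (adjusted p under 0.05) on library sizes scaled by TMM in edgeR 4.0.16 under R 4.3.3; with 1 group no count model with a contrast can be fitted. The test was checked on data simulated with counting error only, so the check does not cover further spread between libraries. Also tried were total counts, all reads, size factors of DESeq2 1.42.0, unstranded counts, other count minimums, leaving out a library, leaving Mir139 out of the totals and, chosen after seeing the data, counts per hairpin base. Named genes were the members, the 2 nearest genes to each by log2(CPM + 1) with a pseudocount of 1, and the members of fixed lists; Mir878, host genes, genomic neighbours and genes that hold the seed letters were named from sequence or position. Members and lists were chosen with earlier results of these data known. Tests ran in SciPy 1.17.1 with NumPy 2.4.6 (Python 3.11.15), and plots in Matplotlib 3.10.9.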

Additional observations from a re-analysis of the deposited data

Results flagged for a closer look

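Many reads lie outside the gene counts used here, above the limit for a count of 0. In replicates 1 and 2, 42.8% and 39.9% of reads were multi-mapped, and reads mapped once outside microRNA genes were 4.56% and 4.39%. How many of them came from the miR-148 family was not tested.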

How the results depend on the processing

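With 2 libraries of 66 to 376 counts per member, precision is limited by counting error at Mir152 and by the small number of libraries at all 3 genes. The log2 ratios of Mir148a, Mir148b and Mir152 kept their direction and their side of the threshold with DESeq2 size factors, total counts, all reads, unstranded counts and no count minimum, with ranges of -0.69 to -0.57, -0.96 to -0.84 and 0.09 to 0.21. Under the same alternatives and with 100 or more counts required, 121 to 150 genes were higher and 132 to 177 lower in replicate 2. With DESeq2 size factors 150 were higher and 146 lower, so which direction held more genes changed with the scaling.

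Per 1000000 reads of any kind, a larger total, the family summed to 39.4, Mir148b to 23.9, Mir148a to 9.74 and Mir152 to 5.72. The level of Mir152, whose libraries differ little, moved to 17.5 CPM with unstranded counts and to 18.1 CPM without Mir139, the most abundant gene, because the totals are smaller. Per hairpin base, the log2 ratio of Mir148a over Mir152 was 0.68 in replicate 1, against 1.12 from counts, and -0.10 in replicate 2, against 0.34 (-0.14 to 0.82). With 1 library alone the family stood at 85.0 to 136.9 CPM, and no ratio between libraries can be formed. No paired analysis was possible because there is 1 group.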

Other observations

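The letters of the family's seed, CAGUGCA, were also looked for at any position of all mature microRNAs in the RefSeq table, on the RNA strand only, and stood in 17 of 1679 names (1.01%). A match away from bases 2 to 8 is a run of letters and no seed. Besides the 3 members and the 7 RNAs that start with the run, it was found further inside 7 others. One of them is miR-139-5p, of the gene with the highest mean level in these libraries, where the run starts at base 5.
miR-139-5p: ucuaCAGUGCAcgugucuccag
Mir139 stood at 130099 CPM (replicate 1) and 84864 CPM (replicate 2).

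Another is miR-33-3p, which shares 11 letters with miR-148b-3p, from base 2 of miR-148b-3p and from base 12 of miR-33-3p. The shared letters are in capitals.
miR-148b-3p: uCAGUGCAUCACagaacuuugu
miR-33-3p: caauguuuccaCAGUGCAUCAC
Mir33 had 71 and 82 counts in replicates 1 and 2, and Mir148b 376 and 187. Both arms of Mir33 are counted together, so how many of those reads carry the shared letters was not analysed here.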
